A study of Mus musculus with 18 samples.

Results

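The sodium pump (Na,K-ATPase) members described here are 6 mouse genes: the beta subunit genes Atp1b1, Atp1b2 and Atp1b3 and the FXYD genes Fxyd2, Fxyd5 and Fxyd7. They were taken by gene symbol from the 22021 genes listed in the deposited file. The list of symbols was chosen with earlier results of these data known. In all, 6 of 6 reached the level required for testing, 1 CPM (read counts scaled to a common total) in at least 4 of 16 pooled libraries. That level was passed by 14214 genes in all. The same file holds 9 other genes of these families, which are given below as counts.

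The data are 18 libraries of mRNA 3′ ends from mouse dorsal root ganglia, the ganglia that hold the cell bodies of sensory neurons. All groups carry the same alleles: Nav1.8cre mice on a C57BL/6J background were crossed to Rosa26fsTRAP mice, so that neurons expressing Nav1.8 (Scn10a), mostly nociceptors, make the ribosomal protein L10a fused to EGFP. Anti-GFP pulldown of ribosomes (TRAP, translating ribosome affinity purification) gives the mRNA bound to ribosomes of those neurons, and the input is the cleared ganglion homogenate from which the pulldown was made. The 4 groups are normal input, normal TRAP, paclitaxel input and paclitaxel TRAP, each with 4 biosamples, numbered 1 to 4 (normal) and 5 to 8 (paclitaxel). Biosample 7 was run as 2 subsamples per fraction, which were averaged here. Paclitaxel, a chemotherapy drug that causes painful neuropathy, was injected intraperitoneally at 4 mg/kg in a cremaphor vehicle, 4 times over 8 days (16 mg/kg in all). Mice were males and females of 8 to 12 weeks. The protocol mentions animals given vehicle alone, but the labels of the control group say only normal. How many animals made up a biosample, and the day or batch of preparation, are not stated, so treatment and any batch cannot be told apart. The p-values rest on the spread between biosamples, which may be partly technical. That spread is pooled over the treatments and drawn toward that of other genes.

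As background, the sodium pump exports sodium and imports potassium at the cost of ATP and so restores the ion gradients that each action potential runs down. Its catalytic alpha subunit needs a beta subunit, a glycoprotein that escorts it to the plasma membrane and takes part in potassium occlusion, and small single-span FXYD proteins bind the complex and adjust its affinity for sodium and potassium. Large myelinated and small unmyelinated sensory neurons are known to differ in the pump subunits they use, and FXYD2 is known as a pump modulator in subsets of small-diameter sensory neurons.

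Depth over listed genes was 4266012 to 14478102 reads in input and 5972348 to 32713248 in TRAP, so that 3 reads correspond to 0.0917 to 0.703 CPM. Pulldowns held fewer genes at 1 CPM or more (8081 to 13228) than inputs (13152 to 14043). The lowest gene numbers among pooled pulldowns were those of biosamples 1, 2, 5 and 6 (9715 to 10884, against 11897 to 13228 in biosamples 3, 4, 7 and 8). The summed level of 11 nociceptor markers was 4723 to 6712 CPM in normal input, 7324 to 9601 in normal TRAP, 4141 to 5116 in paclitaxel input and 7341 to 8255 in paclitaxel TRAP. In normal mice that difference lay in Prph (peripherin), at 1593 to 2798 CPM in input and 2925 to 7460 in TRAP: the other 10 markers summed to 2829 to 5031 and 2140 to 4399 CPM, and of the 11 markers 2 were higher and 2 lower in TRAP. In paclitaxel mice the other 10 summed to 3030 to 3392 CPM in input and 5453 to 6122 in TRAP, and 7 of 11 were higher and none lower. The defining Scn10a transcript had means of 666, 1002, 562 and 1405 CPM in the 4 groups, and its ranges in normal input and TRAP (443 to 1013 and 567 to 1387 CPM) overlapped. Transcripts of other cells were reduced and still present: 8 myelinating Schwann cell markers summed to 5839 to 10458 CPM in input and 1923 to 3113 in TRAP over both treatments, and 6 satellite glia markers to 484 to 1047 in input and 160 to 400 in TRAP. No marker on any of the 9 cell type lists was at 0 in all libraries of a group. In these bulk samples, fewer cells of a type and less RNA per cell cannot be told apart.

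The beta subunit results turn on Atp1b1 and Atp1b3, which make up nearly all beta subunit reads and stood on opposite sides of the comparison of pulldown with input. Their upstream sequences are shown so that the start regions of these genes can be compared. Both are RefSeq windows of 250 bases ending just before the RefSeq gene start (GRCm38.p6), 5′ to 3′ on the gene's own strand, with motif matches in capitals. Of 2 Atp1b3 windows the one nearest to the gene start in GENCODE vM21 was used. Its last bases lie within the gene as GENCODE places it. The motifs, searched on both strands, are the TATA box letters TATAAA and, as a variant, the letters TATATA, the CAAT box letters CCAAT and the GC box letters GGGCGG. Atp1b1 lies at chr1:164458356-164458605 (minus strand) and Atp1b3 at chr9:96364432-96364681 (minus strand).
Atp1b1: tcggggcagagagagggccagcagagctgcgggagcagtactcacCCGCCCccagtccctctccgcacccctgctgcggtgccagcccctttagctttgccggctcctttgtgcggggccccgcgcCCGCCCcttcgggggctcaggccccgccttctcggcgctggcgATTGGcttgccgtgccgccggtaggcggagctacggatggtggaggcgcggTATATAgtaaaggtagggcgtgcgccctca
Atp1b3: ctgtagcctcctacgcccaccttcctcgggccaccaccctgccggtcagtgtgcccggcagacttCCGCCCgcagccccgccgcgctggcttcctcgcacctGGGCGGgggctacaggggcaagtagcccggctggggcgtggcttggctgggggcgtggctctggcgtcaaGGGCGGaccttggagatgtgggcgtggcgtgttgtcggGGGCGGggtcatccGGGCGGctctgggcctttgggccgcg
The Atp1b1 window holds 1 match to the TATA variant beginning 30 bases before the gene start, 1 CAAT box match beginning 81 bases before it and 2 GC box matches. The Atp1b3 window holds 5 GC box matches and none of the other 3 motifs. Among 32851 promoter windows of this length, 5.2% hold the TATA variant, 12.4% the TATA box letters, 33.8% the CAAT box letters and 32.7% the GC box letters. The TATA motifs can share bases with each other, and the others share none in these windows. These matches are descriptions of the letters; nothing was measured at either promoter. Windows for Atp1b2, Fxyd2 and Fxyd7 were not used here.

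Among the FXYD members, Fxyd5 and Fxyd7 are neighbours on the minus strand of chromosome 7. In GENCODE vM21 (GRCm38) Fxyd7 spans chr7:31042513-31051467 and Fxyd5 chr7:31032722-31042481, so that 31 bases separate the end of Fxyd7 from the start of Fxyd5. Because the libraries read 3′ ends, the last bases of Fxyd7 decide where its reads lie. The 30 bases at chr7:31042519-31042548 (minus strand, GRCm38.p6) hold its polyadenylation signal AATAAA, in capitals, 24 bases before the annotated end.
End of Fxyd7: gagcttAATAAAtgtgcattcgttttttcc
The other members lie at chr1:164437109-164458355 (Atp1b1, minus strand), chr11:69599736-69605942 (Atp1b2, minus strand), chr9:96332655-96364442 (Atp1b3, minus strand) and chr9:45399669-45410278 (Fxyd2, plus strand). The tail of Atp1b1 overlaps the tail of Nme7, on the opposite strand, by 617 bases, and the interval the file gives for Atp1b1 also spans Nme7. Whether reads were counted by strand is not given in the sources used here. Nme7 itself stood at 0.26 to 21.7 CPM over all pooled libraries.

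Levels can be set beside each other on the CPM scale, since a 3′ end library draws its reads from 1 end of each transcript and the values carry no division by length. In normal input the order of mean levels was Atp1b3 (1018 ± 176 CPM, SD, n = 4), Atp1b1 (862 ± 170), Fxyd2 (323 ± 224), Fxyd7 (32.1 ± 27.6), Fxyd5 (17.9 ± 5.38) and Atp1b2 (14.3 ± 7.77). Atp1b3 and Atp1b1 overlapped there, as did Fxyd7, Fxyd5 and Atp1b2. Fxyd2 stood between them with no overlap: its range of 154 to 643 CPM lay under the lowest Atp1b1 value of 738 and over the highest Fxyd7 value of 65.7. In paclitaxel input Atp1b1 (1347 ± 147 CPM) stood above Atp1b3 (802 ± 130) with no overlap. In normal TRAP Atp1b3 (1408 ± 229 CPM) led, and Atp1b1 (431 ± 103) and Fxyd2 (349 ± 118) overlapped below it. In paclitaxel TRAP Atp1b3 (1487 ± 463 CPM), Fxyd2 (1117 ± 376) and Atp1b1 (991 ± 214) all overlapped, with Fxyd7 (73.7 ± 38.9) far below and Fxyd5 (15.9 ± 14.2) and Atp1b2 (5.49 ± 6.22) lowest.

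**Figure D1:**
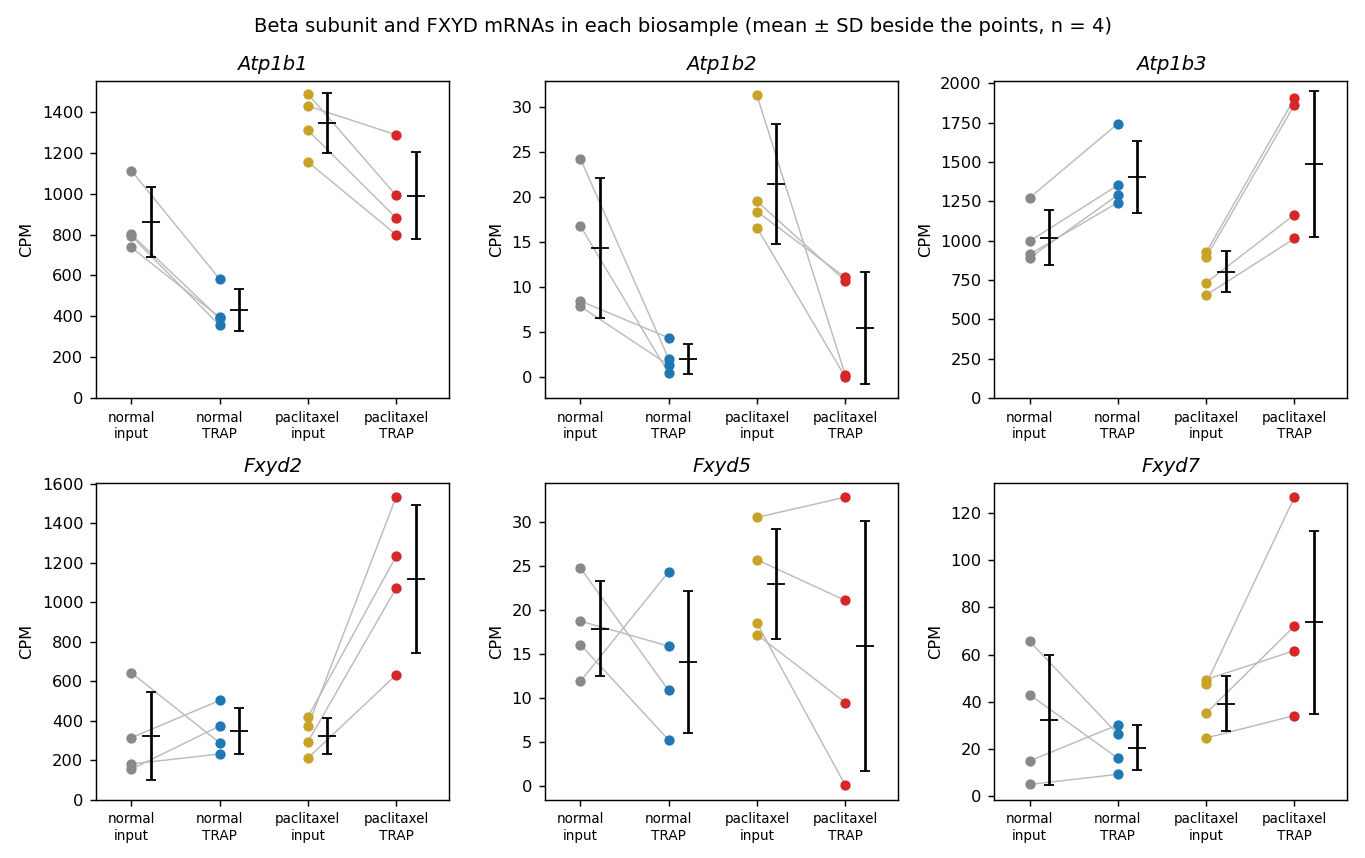
Level in CPM (y axis, linear, a separate scale per gene) of each of the 6 genes in normal input, normal TRAP, paclitaxel input and paclitaxel TRAP; points are biosamples, grey lines join the input and pulldown of 1 biosample, and bars are mean ± SD (n = 4). Every Atp1b1 line falls and every Atp1b3 line rises from input to TRAP, and the 4 Fxyd2 pulldowns after paclitaxel, 632 to 1533 CPM, lie above the normal pulldowns, 231 to 502 CPM.

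The comparison of pulldown with input asks how much of each mRNA sat on ribosomes of Nav1.8 neurons relative to the whole ganglion. In normal mice Atp1b1 and Atp1b2 were lower and Atp1b3 higher in the pulldown, and the 3 FXYD genes did not pass the test. After paclitaxel the beta subunit genes kept those directions and Fxyd2 was higher in the pulldown as well. By limma on log2(CPM + 1) with biosample as a block (adjusted p under 0.05), 3 of 6 members passed in normal mice (1 higher, 2 lower), where 29.8% of all tested genes passed (5.09% higher, 24.7% lower). In paclitaxel mice 4 of 6 passed (2 higher, 2 lower), beside 27.9% of all tested genes (4.92% higher, 23% lower). The members' median log2 change was -0.34 in normal and 0.17 in paclitaxel mice, against -0.66 and -0.56 over all tested genes. All fold changes here are on the log2(CPM + 1) scale, which understates those of the low genes.

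Atp1b1 encodes the beta 1 subunit, the widely used escort of the pump. It measured 794, 738, 1114 and 802 CPM in the normal inputs of biosamples 1 to 4 and 356, 396, 583 and 391 CPM in their pulldowns. Input was above pulldown in each biosample and the fractions did not overlap. The log2 change was -1.01 ± 0.166 (SE), a fold of 0.498, with an adjusted p of 0.000132 by limma. After paclitaxel it measured 1311, 1156, 1430 and 1489 CPM in the inputs of biosamples 5 to 8 and 882, 800, 1289 and 992 CPM in the pulldowns. Again each pulldown was below its own input, although the highest pulldown exceeded the lowest input. The change there was -0.46 ± 0.166 (adjusted p = 0.0413, limma), and it did not pass without biosample 5, 6, 7 or 8 (-0.42, -0.44, -0.56 and -0.42, adjusted p 0.171, 0.151, 0.0564 and 0.126). It was -0.14 (adjusted p = 0.609) under median-ratio scaling and -0.08 (adjusted p = 0.821) by edgeR's quasi-likelihood test with TMM factors, which also took the normal change to -0.49 (adjusted p = 0.11). Without biosample as a block the paclitaxel change had an adjusted p of 0.144. A pulldown below input in all 4 biosamples was seen in 36.4% of tested genes in normal and 36.6% in paclitaxel mice, and Atp1b1 and Atp1b2 were among them in both.

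Atp1b3 encodes the beta 3 subunit. It measured 997, 1272, 890 and 913 CPM in normal inputs and 1353, 1744, 1291 and 1243 CPM in the matching pulldowns. Within biosamples the pulldown exceeded the input by nearly the same amount each time, 0.44 to 0.54 on the log2 scale, while the 2 fractions overlapped between biosamples. The log2 change was 0.47 ± 0.165 (adjusted p = 0.0357, limma). Without 1 biosample at a time it stayed at 0.45 to 0.48, and the adjusted p lay above the threshold without biosample 1, 2, 3, 4, 5 or 7 (0.077, 0.0577, 0.0983, 0.0558, 0.0532 and 0.0557). It also missed the threshold without the block (adjusted p = 0.154) and under quantile normalization (0.29, adjusted p = 0.228). After paclitaxel Atp1b3 measured 925, 895, 733 and 655 CPM in input and 1905, 1864, 1166 and 1014 CPM in TRAP, with no overlap. The pulldown value of biosample 7, 1166 CPM, is a mean over subsamples of 1541 and 790 CPM, the second within the range of the inputs. The change was 0.85 ± 0.165 (adjusted p = 0.00095, limma) and passed under all 18 alternatives tried. All 4 biosamples were higher in TRAP in both treatments, as were 8.41% of tested genes in normal and 11.5% in paclitaxel mice.

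Atp1b2 encodes the beta 2 subunit, which is known as a glial adhesion molecule besides its role in the pump. It was near the detection floor in several pulldowns: 16.8, 7.84, 24.2 and 8.44 CPM in normal inputs stood against 0.40, 1.34, 2.01 and 4.35 CPM in TRAP. After paclitaxel 19.5, 16.6, 31.3 and 18.4 CPM in input stood against 10.7, 0, 0.21 and 11.1 CPM in TRAP. Its 4 pulldowns after paclitaxel thus fell into a low and a high pair: biosample 6 had 0 reads, which allows up to 0.0917 CPM, and the subsamples of biosample 7 had 1 and 4 reads. The log2 changes were -2.37 ± 0.75 (adjusted p = 0.0212) in normal and -2.59 ± 0.75 (adjusted p = 0.0135) in paclitaxel mice by limma. The normal call was lost without biosample 1 (-1.93, adjusted p = 0.115) or 3 (-2.13, 0.0912), the paclitaxel call without biosample 6 (-2.08, 0.0901) or 7 (-1.88, 0.121), and both calls with no filter on low values (adjusted p 0.0716 and 0.0535) and by edgeR (0.213 and 0.179). Besides the left-out biosamples, the normal call held in 3 of 10 alternatives and the paclitaxel call in 8 of 10. Beside Atp1b2, 5 and 4 of the 6 satellite glia markers were lower in TRAP in normal and paclitaxel mice, as were 7 and 8 of the 8 myelinating Schwann cell markers; their part in the Atp1b2 difference was not tested.

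Because Atp1b1 and Atp1b3 moved apart, the makeup of the beta subunit reads differed between fractions. As a share of the reads over the 3 beta subunit genes, Atp1b1 took 45.5% ± 7.6 (SD, n = 4) in normal input, 23.6% ± 5.5 in normal TRAP, 62.0% ± 6.0 in paclitaxel input and 40.8% ± 11.7 in paclitaxel TRAP. Atp1b3 took 53.8%, 76.3%, 37.0% and 59.0%, and Atp1b2 at most 1.4% of any pooled library. The ratio of Atp1b1 to Atp1b3 was 0.80, 0.58, 1.25 and 0.88 in normal inputs and 1.42, 1.29, 1.95 and 2.28 in paclitaxel inputs, with no overlap. In the pulldowns it was 0.26, 0.23, 0.45 and 0.31 in normal and 0.46, 0.43, 1.11 and 0.98 in paclitaxel mice. The paclitaxel pulldowns again fell into pairs. Biosamples 5 and 6, which had the higher Atp1b3 and fewer genes at 1 CPM (10884 and 10399), had ratios close to the highest normal value. Biosamples 7 and 8 (11897 and 13228 genes) had ratios near 1. The value of biosample 7 is a mean over subsamples that differed. They had 8081 and 11945 genes, and Atp1b1 took 45.6% and 61.9% of their beta subunit reads. The part of the gene number in the split between these pairs was not tested.

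**Figure D2:**
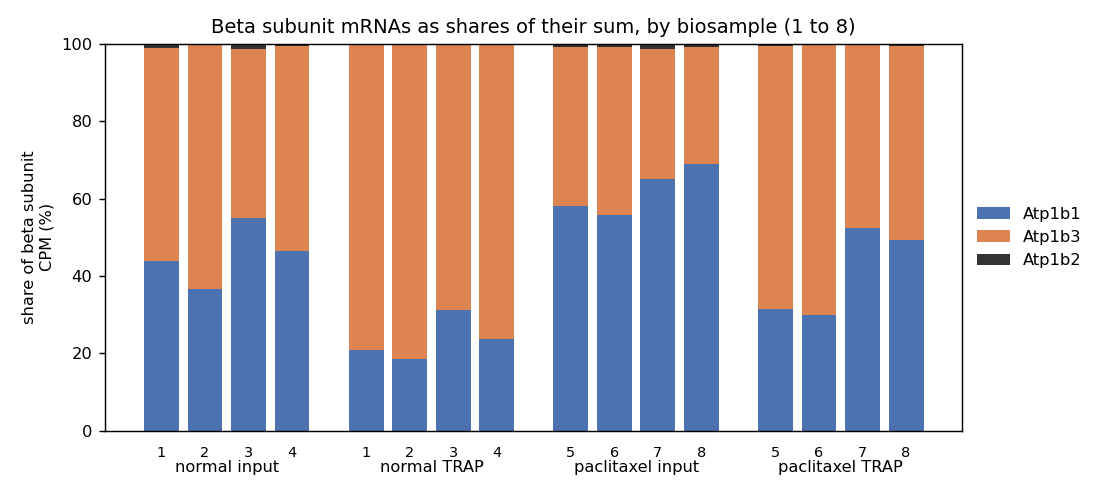
Share (%, y axis) of the reads over the 3 beta subunit genes that fell on Atp1b1, Atp1b3 and Atp1b2, stacked to 100% for each biosample (x axis, 4 per group, biosample 7 as the mean of its subsamples). Atp1b1 takes 18.5% to 31.1% in normal TRAP, 36.6% to 54.9% in normal input, 30.0% to 52.5% in paclitaxel TRAP and 55.9% to 68.9% in paclitaxel input.

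Fxyd2 encodes the gamma subunit, a modulator of the pump's ion affinities. In normal mice it measured 154, 643, 313 and 181 CPM in input and 373, 288, 502 and 231 CPM in TRAP. TRAP was the higher fraction in 3 of 4 biosamples, and biosample 2, with the highest input, went the other way. The log2 change of 0.29 ± 0.251 did not pass (adjusted p = 0.386, limma, with a 95% interval of -0.23 to 0.80). The fit shares this SE between treatments, whereas the log2 differences within biosamples had an SD of 1.03 in normal and 0.24 in paclitaxel mice. In normal mice these differences ran from -1.15 to 1.27. The normal change was 0.77 (adjusted p = 0.00994) without biosample 2 and 0.73 (adjusted p = 0.0432) under median-ratio scaling. After paclitaxel Fxyd2 measured 293, 211, 371 and 418 CPM in input and 1070, 632, 1533 and 1232 CPM in TRAP. The pulldown value of biosample 7, 1533 CPM, is a mean over subsamples of 1017 and 2048 CPM. Every pulldown exceeded every input. The change was 1.76 ± 0.251 (adjusted p = 3.89e-05, limma), a fold of 3.39, and it ranged from 1.65 to 2.16 under all 18 alternatives tried, each of which it passed. Nociceptor markers moved beside it, with 7 of 11 higher in paclitaxel TRAP against 2 higher and 2 lower in normal TRAP, and their part in the Fxyd2 difference was not tested.

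Fxyd7 encodes a brain and nerve FXYD protein that modulates pumps built with beta 1. It measured 14.9, 65.7, 43.0 and 4.92 CPM in normal inputs and 30.2, 26.2, 16.0 and 9.21 CPM in normal pulldowns, higher in 2 biosamples and lower in 2. After paclitaxel it measured 35.1, 24.6, 47.5 and 49.4 CPM in input and 72.1, 34.1, 127 and 61.6 CPM in TRAP, higher in TRAP in each biosample. Neither change passed the limma test (-0.23 ± 0.414, adjusted p = 0.696 and 0.79 ± 0.414, adjusted p = 0.152). Their 95% intervals ran from -1.08 to 0.63 and from -0.06 to 1.65 on the log2 scale.

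Fxyd5 encodes dysadherin, an FXYD protein also known for weakening cell adhesion. It measured 24.8, 11.9, 16.1 and 18.8 CPM in normal inputs and 10.9, 24.3, 5.27 and 15.9 CPM in normal TRAP, and the fractions overlapped. Its inputs after paclitaxel were 18.5, 17.2, 30.5 and 25.7 CPM. The pulldowns ran from 0.13 CPM (2 reads) in biosample 5 through 9.51 and 21.1 CPM in biosamples 6 and 8 to 32.8 CPM in biosample 7. That last value is a mean over subsamples of 0.19 and 65.4 CPM (2 and 788 reads), so the same biosample held the gene's highest level and one near the floor. Neither change passed by limma (-0.45 ± 0.629, adjusted p = 0.597 in normal and -1.27 ± 0.629, adjusted p = 0.132 in paclitaxel mice), and the second was -2.43 with an adjusted p of 0.0263 when subsample 1 alone stood for biosample 7.

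Whether the difference between pulldown and input itself depended on paclitaxel was tested as an interaction. No member passed, beside 0.19% of all tested genes (0.162% higher and 0.0281% lower; 27 genes by limma, with 1611 at an unadjusted p under 0.05 and none by edgeR). Fxyd2 was the member nearest to the threshold: its change between fractions was larger after paclitaxel by 1.47 ± 0.354 on the log2 scale, with an unadjusted p of 0.000351 and an adjusted p of 0.0723. Without biosample 1 this became 1.80 with an adjusted p of 0.0232, and without any other biosample it was not called. Without biosample 2 it was 0.99 (adjusted p = 0.18, limma). The adjusted p was 0.622 without biosample as a block and 0.376 with no filter on low values (limma), and 0.296 by edgeR. The estimate for Atp1b1 was 0.55 ± 0.234 (adjusted p = 0.379) and that for Fxyd7 1.02 ± 0.586 (adjusted p = 0.53). Atp1b3 gave 0.38 ± 0.234 (0.56), Fxyd5 -0.81 ± 0.889 (0.771) and Atp1b2 -0.22 ± 1.06 (0.959).

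Paclitaxel was then compared with normal within each fraction. In the pulldown Atp1b1 and Fxyd2 were higher after paclitaxel, Fxyd7 was above every normal value without passing the test, and Atp1b2, Atp1b3 and Fxyd5 overlapped between treatments. By limma, 2 of 6 members passed, both higher, beside 1.82% of all tested genes (1.33% higher, 0.492% lower). No overlap with paclitaxel higher was seen for 3 of 6 members, beside 6.73% of all tested genes (3.57% with paclitaxel lower). The members' median log2 change was 0.81, against 0.17 over all tested genes. In the same pulldowns the nociceptor markers other than Prph summed to 2140 to 4399 CPM in normal and 5453 to 6122 CPM in paclitaxel mice (1 of 11 markers called higher). Prph went the other way, at 2925 to 7460 CPM in normal and 1580 to 2613 CPM in paclitaxel mice. Tac1 and P2rx3 also had lower means after paclitaxel. With Prph included, the sums of all 11 markers overlapped, at 7324 to 9601 and 7341 to 8255 CPM. Rpl10a, the gene of the ribosomal protein that carries the EGFP tag, stood at 1.19 to 14.1 CPM in normal and 34.7 to 124 CPM in paclitaxel pulldowns. Neither Rpl10a nor the sum without Prph overlapped between treatments. The part of Rpl10a and of the nociceptor markers in the members' differences was not tested.

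For Atp1b1 the normal pulldowns of 356 to 583 CPM and the paclitaxel pulldowns of 800 to 1289 CPM gave a ratio of means of 2.30 and a log2 change of 1.20 ± 0.251 (adjusted p = 0.0302, limma). For Fxyd2 the pulldowns of 231 to 502 and 632 to 1533 CPM gave a ratio of 3.20 and a log2 change of 1.67 ± 0.315 (adjusted p = 0.0185). Leaving out 1 biosample at a time gave 1.07 to 1.35 for Atp1b1 and 1.49 to 1.92 for Fxyd2. Both passed without biosample 3 or 6, and neither passed without biosample 1, 2, 4, 5, 7 or 8 (adjusted p 0.104, 0.11, 0.0668, 0.0851, 0.132 and 0.134 for Atp1b1; 0.0656, 0.102, 0.058, 0.0672, 0.102 and 0.139 for Fxyd2). Neither passed with no filter on low values (0.104 and 0.124) or with the 4 gene-poor pulldowns left out (0.417 each, with changes of 1.24 and 2.01). Atp1b1 also missed the threshold under median-ratio scaling (0.98, adjusted p = 0.0581) and by edgeR (0.99, 0.0507).

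For Fxyd7 the pulldowns of 9.21 to 30.2 CPM in normal and 34.1 to 127 CPM in paclitaxel mice did not overlap either. Its ratio of means was 3.61, and its log2 change of 1.78 ± 0.493 had an adjusted p of 0.0778 (95% interval 0.72 to 2.84), so that it did not pass. The 3 other members gave -0.46 ± 1.01 (Fxyd5, adjusted p = 0.86), 0.42 ± 0.959 (Atp1b2, 0.865) and 0.04 ± 0.282 (Atp1b3, 0.969). The interval for Atp1b3, -0.57 to 0.64, is the narrowest of the 3. Those for Atp1b2 (-1.64 to 2.48) and Fxyd5 (-2.63 to 1.71) are wide, and changes within them were not resolved.

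**Figure D3:**
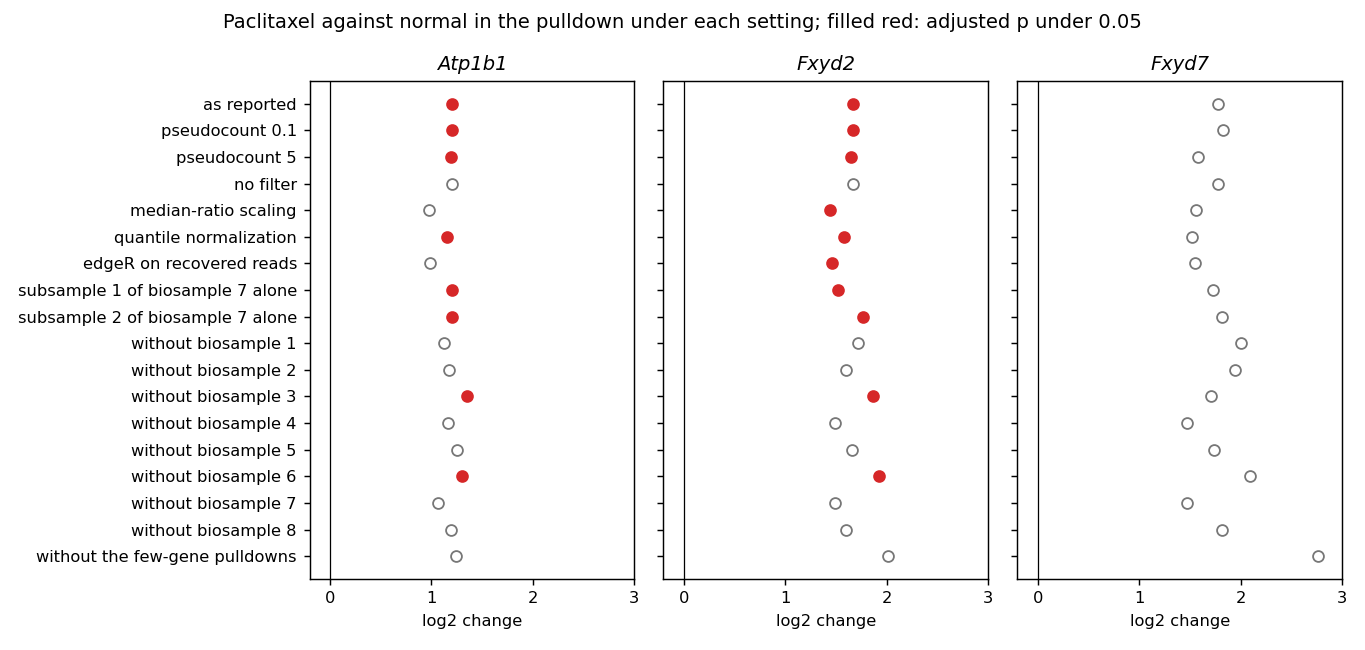
Log2 change of paclitaxel against normal in the pulldown (x axis) for Atp1b1, Fxyd2 and Fxyd7, as reported and under each of 17 alternatives (y axis); filled red points have an adjusted p under 0.05. The changes stay at 0.98 to 1.35 for Atp1b1, 1.44 to 2.01 for Fxyd2 and 1.47 to 2.76 for Fxyd7, while the calls come and go for the first 2 and none is made for Fxyd7.

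In input, no member passed (limma), beside 1.64% of all tested genes (1.46% higher, 0.183% lower; 233 genes, with 2720 at an unadjusted p under 0.05), and none passed by edgeR, which called 144 genes. Atp1b1 was the 1 member of 6 whose groups did not overlap, 738 to 1114 CPM in normal and 1156 to 1489 CPM in paclitaxel mice, beside 8.16% of all tested genes with paclitaxel higher and 3.14% with it lower. Its ratio of means was 1.56 and its log2 change 0.66 ± 0.218 (adjusted p = 0.131, 95% interval 0.19 to 1.12). The remaining changes were 0.76 ± 0.559 for Fxyd7, 0.65 ± 0.341 for Atp1b2, 0.35 ± 0.274 for Fxyd5, 0.19 ± 0.371 for Fxyd2 and -0.34 ± 0.218 for Atp1b3, with adjusted p from 0.321 to 0.823. The Fxyd2 means in input, 323 ± 224 and 323 ± 91.0 CPM, gave a ratio of 1.00, set beside 3.20 in the pulldown. The interaction above is the test of that contrast. The normal input mean includes biosample 2 at 643 CPM, against 154 to 313 CPM in the others. Leaving out 1 biosample at a time gave Fxyd2 changes in input of -0.08 to 0.60. The highest was that without biosample 2 (adjusted p = 0.195, limma). Erythroid markers summed to 161 to 259 CPM in normal and 570 to 1804 CPM in paclitaxel inputs (3 genes, 2 called higher). Large-fibre neuron markers summed to 708 to 1108 CPM in normal and 1214 to 1544 CPM in paclitaxel inputs (6 genes, none called). Satellite glia markers summed to 484 to 924 and 799 to 1047 CPM there (6 genes, 1 called higher). In the pulldowns the large-fibre sums overlapped (408 to 964 and 537 to 1010 CPM), whereas the satellite glia sums did not (160 to 279 and 347 to 400 CPM, none of 6 called). The part of any of these in the Atp1b1 and Fxyd2 differences was not tested. Nme7, which overlaps Atp1b1, had means of 2.79 and 8.87 CPM in the pulldowns, and whether reads of the overlap were counted as Atp1b1 was not tested.

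**Figure D4:**
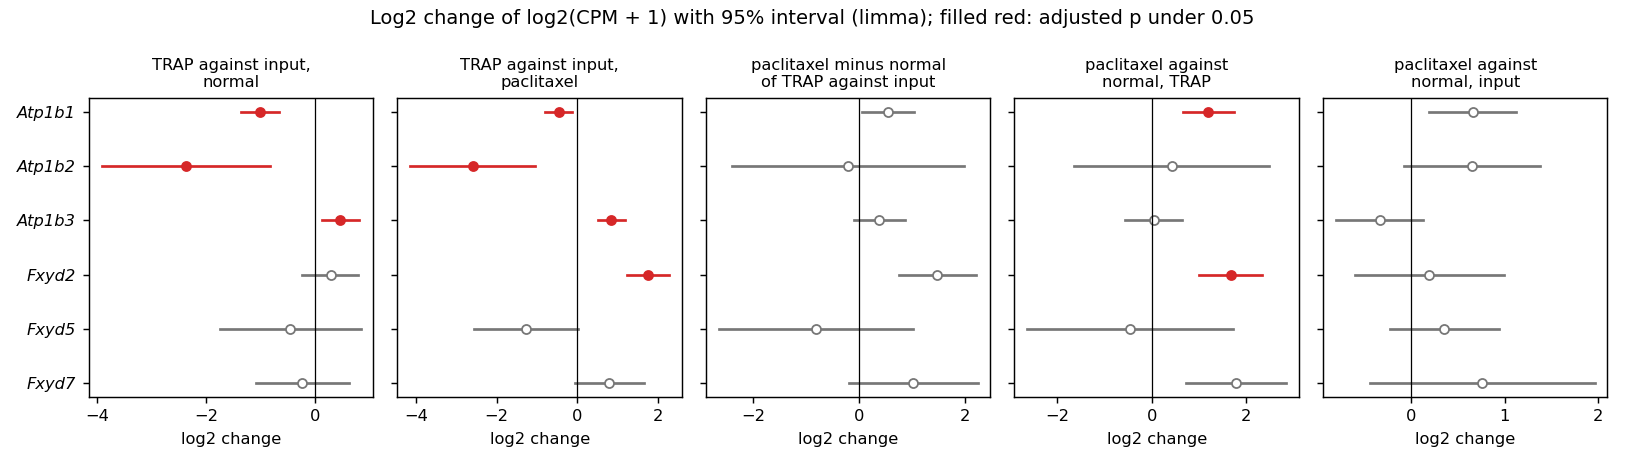
Log2 change on the log2(CPM + 1) scale (x axis) with its 95% interval for the 6 genes (y axis) in the 5 comparisons fitted with limma; filled red points have an adjusted p under 0.05. Red points appear for Atp1b1, Atp1b2 and Atp1b3 in both comparisons of TRAP with input, for Fxyd2 in the paclitaxel one, and for Atp1b1 and Fxyd2 between treatments in TRAP.

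Within the FXYD members Fxyd2 held most reads in every group: 85.3% ± 4.5 (SD, n = 4) in normal input, 90.3% ± 4.4 in normal TRAP, 83.8% ± 1.0 in paclitaxel input and 92.9% ± 1.5 in paclitaxel TRAP. Fxyd7 took 7.7%, 5.4%, 10.1% and 5.9% and Fxyd5 7.0%, 4.3%, 6.0% and 1.2%. Over the 16 pooled libraries the log2 levels of Fxyd2 and Fxyd7 had a Pearson correlation of 0.79, the highest of the 15 pairs of members, and those of the adjacent Fxyd5 and Fxyd7 one of -0.08. Atp1b3 ran against Atp1b1 (-0.63) and Atp1b2 (-0.70). These libraries share groups, depth and homogenates, so the correlations are descriptions.

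The genes whose log2 levels were most like each member's, among 10513 genes with a mean of at least 5 CPM, are given in the same way. Fxyd2 was followed most closely by Siah2, a ubiquitin ligase (r = 0.954), Tubb5, a beta tubulin (0.945), and Sod1, the cytosolic superoxide dismutase (0.942). Fxyd7 was followed by Cox8a, a cytochrome c oxidase subunit (0.962), and Tonsl (0.924). For Atp1b1 these were Synb (0.957), Ap2m1, a clathrin adaptor subunit (0.951), and Camk2n1, an inhibitor of CaM kinase II (0.950). Atp1b3 was followed by Dusp26 (0.953), Mrps12 (0.928) and Nectin1 (0.907). The closest to Atp1b2 were Rem2 (0.974), Sulf1 (0.952) and Wee1 (0.948), and to Fxyd5 Iqsec3 (0.926), Ginm1 (0.914) and Fam65b (0.907).

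Other genes of ion homeostasis were counted from fixed lists. Of the 9 other genes of the pump families 6 were tested: 2 were lower in TRAP than input in normal and 3 in paclitaxel mice, none was higher, and none passed in the other 3 comparisons. Under median-ratio scaling and by edgeR, 1 of these 6 was higher in TRAP in each treatment. Of 8 pump-interacting and regulatory genes (Nkain1 to Nkain4, Sgk1, Sgk3, Nedd4, Nedd4l) 7 were tested, and 3 were lower in normal and 6 in paclitaxel TRAP, with median log2 changes of -0.94 and -1.69 beside the -0.66 and -0.56 of all tested genes, of which 24.7% and 23% were lower. These counts fell to 2 and 3 under median-ratio and quantile scaling and to 0 and 1 by edgeR. Sgk1, a kinase that acts on sodium transport, had log2 changes of -2.24 ± 0.64 (adjusted p = 0.0121, limma) and -2.29 ± 0.64 (0.011). Nkain4, a partner of the pump, had -2.22 ± 0.648 (0.0135) and -2.35 ± 0.648 (0.0101). By edgeR neither gene passed in either treatment (adjusted p 0.0843 to 0.181). Under quantile normalization Nkain4 did not pass in normal mice either (-1.07, adjusted p = 0.138, limma).

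Among 12 calcium pump and sodium-calcium exchanger genes, 1 was higher and 4 lower in normal TRAP (median -0.53) and 4 lower in paclitaxel TRAP (median -0.74), beside 24.7% and 23% of all tested genes called lower. The 4 lower in normal TRAP became 0 under median-ratio scaling and by edgeR and 2 under quantile normalization. The higher one was Atp2b1, the plasma membrane calcium pump 1, at 820 ± 291 CPM in normal input and 1910 ± 820 in normal TRAP (log2 change 1.19 ± 0.175, adjusted p = 3.45e-05). It was also the only one of the 12 to pass between treatments in the pulldown, lower after paclitaxel at 753 ± 46.1 CPM (-1.25 ± 0.286, adjusted p = 0.0424), and it passed there under the 3 other scalings too (-1.19 to -1.55 with adjusted p 0.00411 to 0.0241). That direction is the opposite of those of Atp1b1 and Fxyd2 in the same pulldowns. Like theirs, the Atp2b1 call between treatments was lost without biosample 2 or 8 and with no filter on low values. It was also lost without the pulldowns of fewest genes. No gene at all passed that comparison under these settings. The muscle-type calcium pump Atp2a1 was lower in paclitaxel TRAP (-1.60 ± 0.258, adjusted p = 0.000175), beside skeletal muscle markers of which 3 of 4 were lower. The exchanger Slc8a1 stood at 1.83 ± 0.543 CPM in paclitaxel input and was listed at 0 in all 4 pulldowns (adjusted p = 0.00743), and Slc8a2 at 2.02 and 0.01 CPM in normal input and TRAP (adjusted p = 0.0411). The Slc8a1 call was lost under quantile normalization (-0.18, adjusted p = 0.734), and the Slc8a2 call under median-ratio scaling (0.0688), quantile normalization (0.47) and by edgeR (0.0722).

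Among 20 sodium-coupled exchangers and cation-chloride cotransporters 19 were tested. In TRAP 5 were lower in normal and 5 in paclitaxel mice, with none higher (medians -0.74 and -0.61), a share close to the 24.7% and 23% of all tested genes called lower. The largest were the potassium-chloride cotransporter Slc12a7 (-1.77 ± 0.512, adjusted p = 0.0129) and the sodium-proton exchanger Slc9a2 (-1.48 ± 0.401, 0.00863) in normal mice, and the bicarbonate transporters Slc4a10 (-2.20 ± 0.509, 0.00353) and Slc4a4 (-1.79 ± 0.346, 0.0009) in paclitaxel mice. Slc12a7 did not pass under median-ratio scaling (adjusted p = 0.057), quantile normalization (0.1) or by edgeR (0.154). Slc9a2, at 2 and 0.01 CPM in normal input and TRAP, did not pass under quantile normalization (0.316) or by edgeR (0.0661). Slc4a10 and Slc4a4 passed under each of these settings. Under median-ratio and quantile scaling 1 member of this list was higher in paclitaxel TRAP and the lower calls in normal mice dropped to 1. The potassium-dependent sodium-calcium exchanger Slc24a2 was higher in input after paclitaxel, at 86.5 ± 28.7 CPM in normal and 170 ± 22.8 CPM in paclitaxel mice (1.01 ± 0.226, adjusted p = 0.0409). It did not pass under median-ratio scaling (adjusted p = 0.0578), quantile normalization (0.052) or by edgeR (0.0867).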

How the data were processed

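Per the labels' protocols, input and anti-GFP pulldown came from 1 homogenate per biosample, and libraries were made with a QuantSeq 3′ end kit after ribosomal RNA depletion. Per the submitters' processing notes, the tools named, without roles, are TopHat2 2.1.1, Cufflinks 2.2.1, Bowtie2 2.2.9 and FastQC 0.11.5, the build is GRCm38.p4, and GENCODE vM10 gene models are named per the file headers. Although the header says TPM, the authors deposited CPM: 98.2% to 99.6% of the values under 6 CPM in a library are whole multiples of 1 step (tolerance 0.0051 CPM), with no division by length. The step gives each library's reads. Strand handling and molecular identifiers are not given in the sources used here, and read floors cover counting error only.

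Groups follow the labels. The subsamples of biosample 7 were averaged, giving 16 pooled libraries, and the authors' 2 merged columns were not used. Genes reaching 1 CPM in 4 or more of these libraries were tested as log2(CPM + 1), pseudocount 1, with limma 3.58.1 in R 4.3.3 (trend on). A single model over all 16, blocked on biosample, gave TRAP against input in each treatment and their interaction. The spread of a gene is estimated there over both treatments together and moderated over genes. The pairing comes from the shared homogenate; deviations of an input and its own pulldown correlated at 0.05 to 0.38, the highest value among the pulldowns of the group in 7 of 8 biosamples. Paclitaxel against normal was fitted on 8 pulldowns and on 8 inputs. Adjusted p-values are two-sided, Benjamini-Hochberg over all tested genes, threshold 0.05. The comparisons between treatments reuse libraries of the TRAP against input fit. edgeR 4.0.16 ran on reads recovered from the CPM as an alternative, beside other pseudocounts, filters, scalings and left-out biosamples.

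The members and gene lists were chosen with earlier results of these data known. Named genes are the 6 members, the 3 genes of highest Pearson correlation with each over the 16 libraries, and the 2 largest passing changes of each list; the other genes of the pump families are given as counts only, and 2 genes that this rule names are not reported here. Gene coordinates are from GENCODE vM21 and upstream windows from RefSeq (GRCm38.p6), which held 3 of 6 members.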

Additional observations from a re-analysis of the deposited data

Results flagged for a closer look

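Of 24 groups of 4 biosamples (6 genes in 4 groups), 1 had a biosample far from the rest. The normal input of biosample 3 held Atp1b1 at 1114 CPM, against 738 to 802 CPM in the other 3, a gap of 0.830 of the whole range and just past the 95% limit of Dixon's test for 4 samples. Chance gives such a gap in about 1 of 20 groups. Its pulldown, at 583 CPM, was also the highest of the normal pulldowns. Without biosample 3 the log2 change of Atp1b1 between treatments in the pulldown was 1.35 with an adjusted p of 0.0142 (limma).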

How the results depend on the processing

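Of the 6 members, 3 passed for TRAP against input in normal mice, and 1 did so under quantile normalization, by edgeR and without the pulldowns of fewest genes (biosamples 1, 2, 5 and 6); leaving out 1 biosample at a time gave 1 to 3. In paclitaxel mice 4 passed, 2 by edgeR, and 2 to 4 with 1 biosample left out. For the interaction 0 passed, and 0 to 1 with 1 biosample left out. Between treatments in the pulldown 2 passed; 0 passed with no filter or without the pulldowns of fewest genes, 1 under median-ratio scaling and 1 by edgeR, and leaving out 1 biosample gave 0 to 2. In input 0 passed throughout. No called member changed direction under any alternative. With no replicate block, the pairing by biosample being removed, 2 calls were lost: Atp1b3 in normal mice (0.47, adjusted p = 0.154, limma) and Atp1b1 in paclitaxel mice (-0.46, 0.144); the block changed no other member's call. The cause of these changes was not tested.

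Over all tested genes, the counts of 4233 (normal) and 3963 (paclitaxel) for TRAP against input became 1864 and 1915 by edgeR, 2393 and 1845 without the pulldowns of fewest genes and 2327 to 4356 and 2049 to 4377 with 1 biosample left out. The normal count was 2695 under quantile normalization and 2787 with subsample 1 of biosample 7 alone. The interaction count of 27 ranged from 0 to 86. The count of 259 between treatments in the pulldown ranged from 0 to 523, and that of 233 in input from 0 to 831. Median-ratio scaling moved the median gene by 0.34 and 0.28 (TRAP against input), -0.16 (pulldown) and -0.09 (input), quantile normalization by 0.66, 0.60, -0.18 and -0.17, and edgeR by 0.21, 0.20, -0.19 and -0.16. The share of calls that were higher moved from 17.1%, 17.6%, 73% and 88.8% to 45.2%, 39.4%, 46.2% and 76% under median-ratio scaling, 48.5%, 47.6%, 58.7% and 80.4% under quantile normalization, and 67.2%, 59.9%, 40.4% and 68.1% by edgeR. Atp1b2 and Fxyd5 stood at 4 reads or fewer in some pulldowns. The pulldown of biosample 6 had 0 Atp1b2 reads among 32713248, and that of biosample 8 had 117 among 10576214. The part of depth in these low values was not tested.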
